A study of Mus musculus with 24 samples.

Results

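The genes described here are nuclear-encoded subunits of the mitochondrial respiratory chain and of ATP synthase. They are 46 genes chosen by symbol and grouped as complex I (Nduf genes), complex II (Sdh genes), complex III (Uqcr genes and Cyc1), complex IV (Cox genes) and complex V (Atp5 genes). On the array used, 42 of the 46 had a probe annotated to their symbol, and Uqcrb, Cox7c, Cox8a and Atp5g1 were not analysed here. All 42 passed the detection filter, which asked that a probe be detected (p under 0.05) on 8 or more arrays, and they stand among 9836 genes tested. By complex they number 17 genes of complex I, 3 of complex II, 5 of complex III, 8 of complex IV and 9 of complex V.

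RNA was measured on 24 Illumina bead arrays of epididymal fat, the abdominal fat depot next to the epididymis, from male C57BL6/J mice aged 8 months. Each of 3 groups holds 8 arrays: mice fed ad libitum (AL), mice under 40% dietary restriction (DR) and mice given rapamycin, an inhibitor of the mTOR kinase, at 14 ppm (Rapa). Both treatments ran for 6 months from an age of 2 months, and the series title sets short rapamycin treatment against restriction. No genetic change is named for any group, and the labels do not say whether samples came from separate animals. The p-values therefore reflect the spread from sample to sample, which may be technical.

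The respiratory chain passes electrons from NADH (through complex I) and from succinate (through complex II) to ubiquinone, and then through complex III and cytochrome c to oxygen at complex IV. Complexes I, III and IV pump protons across the inner mitochondrial membrane, and ATP synthase (complex V) uses the return flow to make ATP. White adipocytes are filled mostly by lipid and hold fewer mitochondria than brown adipocytes, in which the proton gradient can be spent as heat. Most subunits are encoded in the nucleus and a few in the mitochondrial DNA.

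The arrays differed in brightness and in the level of epididymis and testis transcripts. The upper quartile of intensity lay between 24.8 and 111.7 in AL, between 17.5 and 78.9 in DR and between 15 and 106.7 in Rapa, and it followed the replicate number: arrays numbered 1 or 5 lay between 15 and 29.8 in any group and those numbered 2 or 6 between 73.7 and 111.7. The labels give this class of numbers no name. A score of 11 measurable epididymis and testis genes, their median log2 intensity, was 4.66 to 6.01 in AL, 5.36 to 10.92 in DR and 4.70 to 11.09 in Rapa. Of the arrays, 7 (5 DR and 2 Rapa) scored above 8. The summed intensity of these 11 genes ran from 318 to 6435 in AL, 667 to 41465 in DR and 296 to 66945 in Rapa. That of 16 adipocyte genes ran from 154598 to 185523 in AL, 122486 to 159235 in DR and 114916 to 164206 in Rapa. Some label fields name the tissue as liver, but of 12 hepatocyte genes 2 (Ttr and Apoa1) passed the detection filter, on 8 arrays each, 6 were detected on 2 to 7 arrays and 4 (Alb, Fgb, Tat and Hpd) on 0. All 16 adipocyte genes with a probe passed the filter.

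Most respiratory genes lay above the AL level in the fat of restricted mice and below it in the fat of mice given rapamycin. Against AL, 36 of the 42 genes lay higher in DR, with a median log2 fold change of 0.26, and 5 passed as higher and 0 as lower. Against AL, 38 of the 42 lay lower in Rapa, with a median of -0.20, but 0 passed in either direction. Between the treatments, 41 of the 42 lay higher in DR than in Rapa, with a median of 0.45, and 15 passed as higher and 0 as lower. The median over all 9836 genes was -0.01 in each of the 3 comparisons. The comparisons of DR and of Rapa with AL share the AL arrays, so their values are given side by side and are not independent.

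A gene passed where its adjusted p, from a limma fit over all arrays and all kept probes, was under 0.05. Of all genes tested, 5.2% passed as higher in DR than in AL, against 5 of 42 respiratory genes, and 6.5% passed as lower, against 0 of 42. As higher in DR than in Rapa 5.88% passed, against 15 of 42, and as lower 5.54%, against 0 of 42. Rapamycin against AL called 0% of all genes as higher and 0.153% as lower. The respiratory genes are bright, and brighter genes passed more often: among the 1318 genes with a mean log2 intensity of at least 10, 7.51% passed as higher in DR than in AL, against 5 of 30 respiratory genes at that level (16.7%). For DR against Rapa the share among these brighter genes was 9.41%, against 13 of 30 (43.3%). The members were chosen with earlier results known, so these shares are a description and carry no test of the list.

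**Figure D1:**
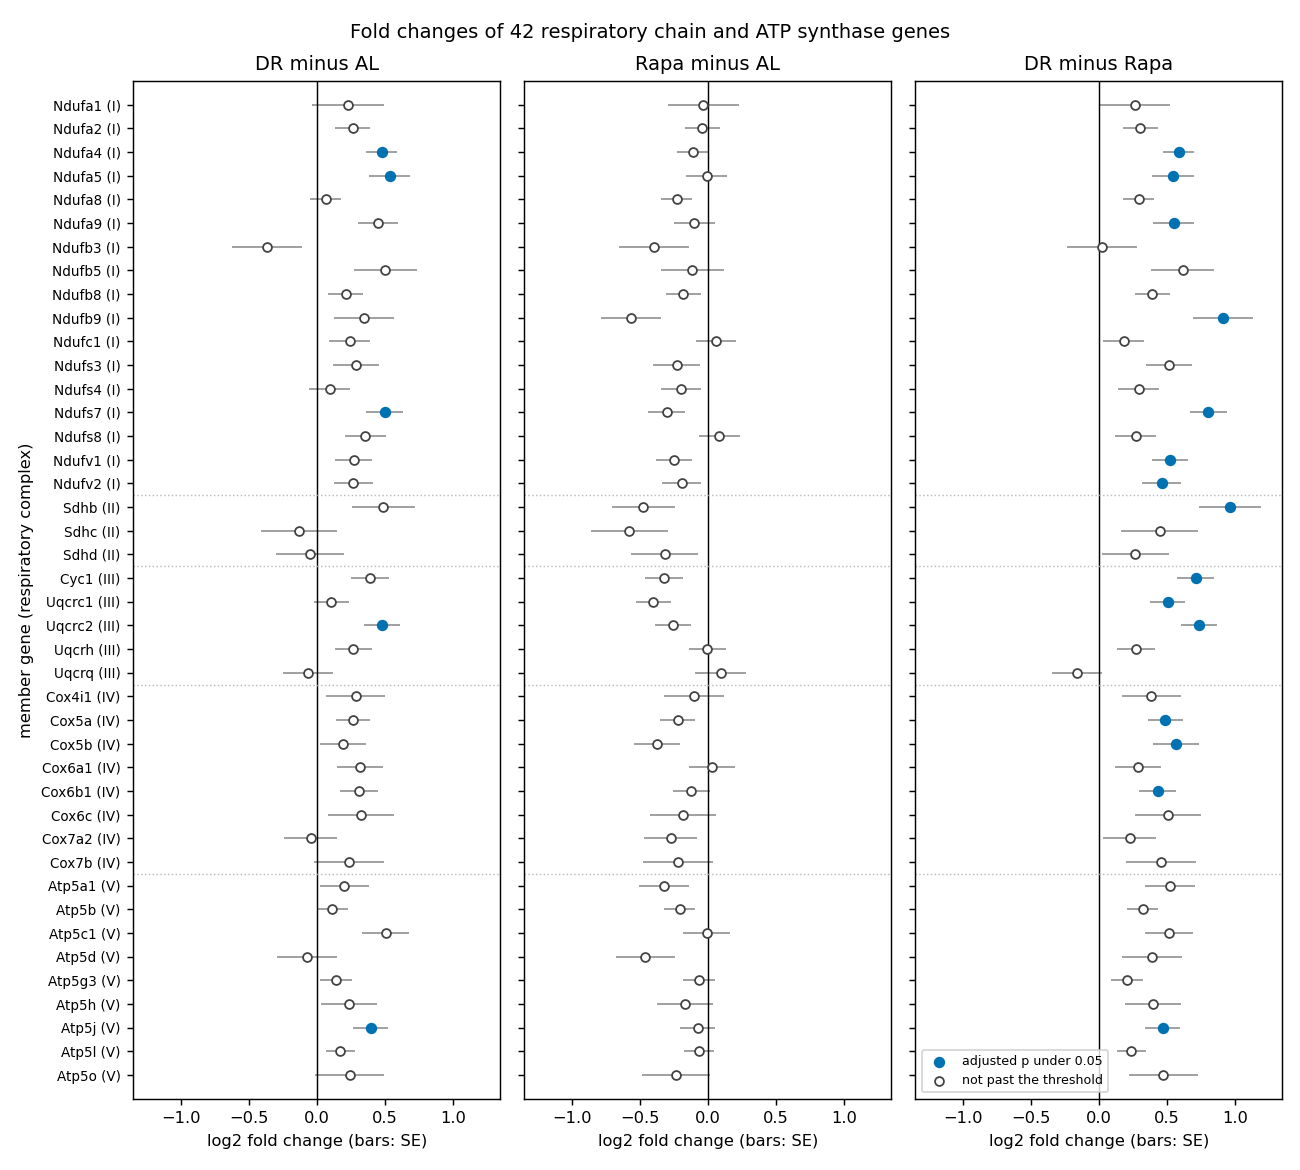
Log2 fold change of each of the 42 genes (rows, grouped by complex) in 3 comparisons (panels), with bars of 1 SE from the limma fit over 24 arrays. Filled points passed an adjusted p of 0.05. They number 5 in DR minus AL, 0 in Rapa minus AL and 15 in DR minus Rapa, and most open points lie to the right of 0 in the first and last panels and to the left of 0 in the middle one.

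By symbol, complex I held 3 of the 5 genes that rose in DR against AL. Ndufs7, a core subunit that carries an iron-sulphur cluster near the ubiquinone site, had a log2 intensity from 10.66 to 11.31 in AL with a median of 11.13, from 11.12 to 11.88 in DR with a median of 11.65, and from 10.48 to 11.06 in Rapa with a median of 10.80. Of the 8 DR arrays, 6 lay above every AL array and all 8 above every Rapa array, and all 8 Rapa arrays lay below the AL median. It rose 1.41-fold in DR against AL (log2 0.50 ± 0.14 SE, adjusted p = 0.0164) and stood 1.75-fold higher in DR than in Rapa (0.80 ± 0.14, adjusted p = 0.000211).

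Ndufa5, an accessory subunit of the matrix-facing arm, ran from 10.99 to 11.73 in AL (median 11.31), from 11.46 to 12.26 in DR (median 11.85) and from 11.04 to 11.78 in Rapa (median 11.26). Every DR array lay above the AL median and 6 lay above every AL array, while Rapa arrays fell on both sides of the AL median. It had the largest change of complex I in DR against AL, at 0.54 ± 0.15 (1.45-fold, adjusted p = 0.0227), a call that was lost on leaving out AL array 2, 3 or 7 or DR array 1 (highest adjusted p = 0.0547). The difference between DR and Rapa was also 0.54 ± 0.15 (adjusted p = 0.0209). Its further kept probe, a dimmer one, gave 0.49 in DR against AL and did not pass.

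Ndufa4 carries a complex I symbol, but the protein is now assigned to complex IV. Its level ran from 12.41 to 12.96 in AL (median 12.56), from 12.84 to 13.36 in DR (median 13.20) and from 12.38 to 12.70 in Rapa (median 12.53). All 8 DR arrays lay above every Rapa array and 5 lay above every AL array. It rose by 0.48 ± 0.11 in DR against AL (1.39-fold, adjusted p = 0.00673) and stood 0.59 ± 0.11 higher in DR than in Rapa (adjusted p = 0.000959).

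Outside complex I, Uqcrc2 and Atp5j rose in DR against AL. Uqcrc2, a core protein of complex III that faces the matrix, ran from 11.84 to 12.57 in AL (median 12.25), from 12.50 to 13.00 in DR (median 12.76) and from 11.57 to 12.31 in Rapa (median 12.08). In DR 7 of 8 arrays lay above every AL array and all 8 lay above every Rapa array. Uqcrc2 rose by 0.48 ± 0.13 in DR against AL (1.39-fold, adjusted p = 0.0181) and stood 0.74 ± 0.13 higher in DR than in Rapa (1.67-fold, adjusted p = 0.000403).

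Atp5j, the coupling factor 6 of the ATP synthase stalk, ran from 12.29 to 12.73 in AL (median 12.51), from 12.67 to 13.31 in DR (median 12.84) and from 12.07 to 12.79 in Rapa (median 12.51). In DR 7 of 8 arrays lay above every AL array, and the Rapa arrays were split evenly around the AL median. It rose by 0.40 ± 0.13 in DR against AL (1.32-fold, adjusted p = 0.0475) and stood 0.47 ± 0.13 higher in DR than in Rapa (adjusted p = 0.0177). The call against AL had the highest adjusted p of the 5. It was lost on leaving out any 1 of 15 arrays (highest adjusted p = 0.103) and under 7 of 15 other settings. The further kept probe of Atp5j, a dimmer one, gave 0.38 in DR against AL (adjusted p = 0.169) and 0.39 in DR against Rapa (adjusted p = 0.158).

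**Figure D2:**
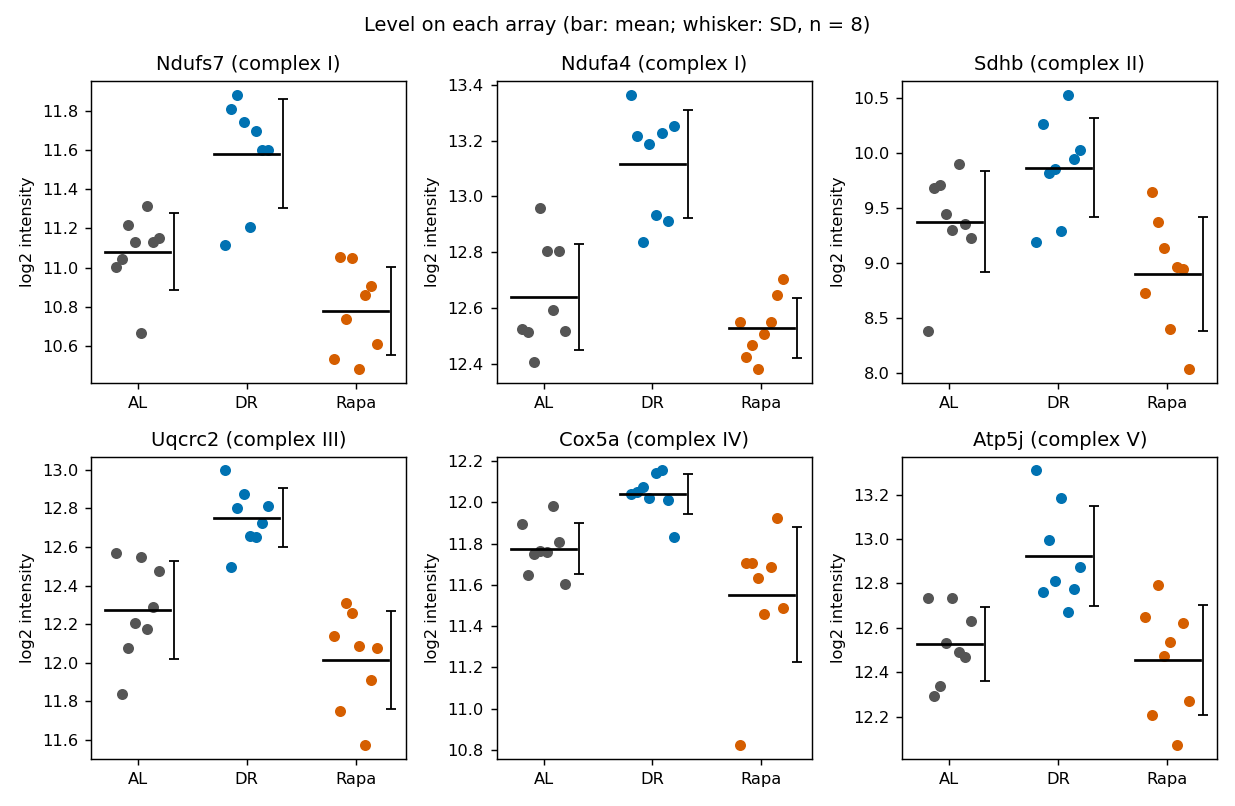
Normalised log2 intensity of 6 genes on each of the 24 arrays (points), with the group mean (bar) and SD (whisker, n = 8). Ndufs7, Ndufa4 and Uqcrc2 have every DR array above every Rapa array, Sdhb is the most spread of the 6, and Cox5a has 1 Rapa array far below the others.

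The promoters of genes that rose in DR against AL are shown to give the sequence context of the start site, since respiratory genes are known to carry sites for the nuclear respiratory factor NRF1 and for ETS-family factors such as GABP. The sequences are RefSeq windows of build GRCm38.p6, from 250 bases before to 50 bases after each start site, written on the strand of the gene, with capitals for matches to NRF1 (GCGCA, any single base, then GCGC), ETS (CCGGAAG), YY1 (AAGATGGC), ERR (TCAAGGTCA) or SP1 (GGGCGG), each searched on both strands. Ndufa4 at chr6:11907401-11907700 (minus strand) has 0 matches. Ndufs7 at chr10:80249199-80249498 (plus strand) has a YY1 match. Ndufa5 at chr6:24527477-24527776 (minus strand) has an NRF1 and an SP1 match, and a further window of this gene overlaps the one printed. Atp5j has 2 start sites, with 2 SP1 matches at chr16:84835576-84835875 and a YY1 and an ETS match at chr16:84834927-84835226 (both minus strand).
Ndufa4: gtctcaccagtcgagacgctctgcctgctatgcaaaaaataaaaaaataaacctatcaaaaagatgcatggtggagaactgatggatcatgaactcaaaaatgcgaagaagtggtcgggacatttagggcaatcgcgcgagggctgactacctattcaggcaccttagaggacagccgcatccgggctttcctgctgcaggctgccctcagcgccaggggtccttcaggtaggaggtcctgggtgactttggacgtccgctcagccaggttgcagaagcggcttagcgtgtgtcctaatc
Ndufs7: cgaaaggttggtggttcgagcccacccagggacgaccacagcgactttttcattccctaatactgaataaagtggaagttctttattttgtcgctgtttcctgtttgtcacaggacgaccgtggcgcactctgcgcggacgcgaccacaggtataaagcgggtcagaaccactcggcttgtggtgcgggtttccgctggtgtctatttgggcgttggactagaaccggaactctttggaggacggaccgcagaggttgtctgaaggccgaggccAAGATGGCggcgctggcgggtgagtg
Ndufa5: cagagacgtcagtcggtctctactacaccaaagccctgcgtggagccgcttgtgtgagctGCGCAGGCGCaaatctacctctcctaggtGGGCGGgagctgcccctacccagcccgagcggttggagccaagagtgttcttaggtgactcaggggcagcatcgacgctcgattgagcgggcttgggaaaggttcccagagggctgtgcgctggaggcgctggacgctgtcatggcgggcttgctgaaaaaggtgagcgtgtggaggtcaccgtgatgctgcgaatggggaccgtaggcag
Atp5j, first start site: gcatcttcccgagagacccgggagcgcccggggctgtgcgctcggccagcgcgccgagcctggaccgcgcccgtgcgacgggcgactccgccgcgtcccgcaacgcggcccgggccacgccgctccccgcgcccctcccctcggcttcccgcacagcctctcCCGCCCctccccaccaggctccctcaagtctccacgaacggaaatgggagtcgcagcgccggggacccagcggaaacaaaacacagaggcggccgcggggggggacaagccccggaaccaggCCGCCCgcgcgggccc
Atp5j, second start site: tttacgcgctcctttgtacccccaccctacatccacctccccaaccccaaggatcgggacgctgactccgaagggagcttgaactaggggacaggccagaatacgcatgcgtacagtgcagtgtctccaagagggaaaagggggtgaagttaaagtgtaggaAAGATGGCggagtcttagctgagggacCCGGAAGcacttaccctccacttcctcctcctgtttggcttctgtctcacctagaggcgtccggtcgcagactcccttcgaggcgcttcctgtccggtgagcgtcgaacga

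Of the 42 genes, 33 had such a window, 37 windows in all, and Uqcrc2 had none. The NRF1 letters were in 27.0% of the windows of these genes, in 9.45% of those of all tested genes and in 4.60% of all windows. For the other letters the shares in the same order were 27.0%, 16.6% and 8.86% for ETS, 16.2%, 4.15% and 2.75% for YY1, and 5.41%, 0.273% and 0.423% for ERR. The SP1 letters were in 37.8%, 60.9% and 35.7%. Of the 37 windows, 10 held the NRF1 letters, 10 ETS, 6 YY1, 2 ERR and 14 SP1, so the ERR share rests on few windows. No match overlapping another motif occurs in the printed windows, and a match is a run of letters, not a measured binding site.

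The difference between DR and Rapa reached further into complex I. It had 7 of 17 genes higher in DR, with a median over the 17 of 0.46, and 0 lower. Of the 5 catalytic core genes measured, most of which carry the flavin or the iron-sulphur clusters, 3 passed (Ndufs7, Ndufv1 and Ndufv2), and of the 11 accessory genes 3 passed (Ndufa5, Ndufa9 and Ndufb9). The medians were 0.52 over the core genes and 0.30 over the accessory genes, and the difference between these medians was not tested.

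Ndufv1, the subunit that binds FMN and NADH, ran from 11.49 to 12.24 in AL, from 11.77 to 12.36 in DR and from 11.20 to 11.77 in Rapa, with medians of 11.79, 12.08 and 11.68. Every DR array lay above every Rapa array, by a narrow margin, and all 8 Rapa arrays lay below the AL median. DR exceeded Rapa by 0.52 ± 0.13 (adjusted p = 0.0101), made of 0.27 ± 0.13 above AL in DR and -0.25 ± 0.13 in Rapa, neither of which passed.

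Ndufv2, its iron-sulphur partner, had medians of 11.48 in AL (11.11 to 11.71), 11.79 in DR (11.29 to 12.02) and 11.23 in Rapa (10.93 to 11.78). All 8 DR arrays lay above the Rapa median and 4 above every Rapa array. The difference of 0.46 ± 0.14 passed at an adjusted p of 0.0370, which was lost on leaving out any 1 of 10 arrays (highest adjusted p = 0.0796).

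Ndufa9, an accessory subunit near the ubiquinone site, had medians of 11.73 in AL (11.41 to 12.03), 12.29 in DR (11.84 to 12.58) and 11.68 in Rapa (11.13 to 12.05). Each DR array lay above both other medians. It stood 0.55 ± 0.15 higher in DR than in Rapa (adjusted p = 0.0160), and 0.45 ± 0.15 higher than in AL, which just missed the threshold (adjusted p = 0.0513).

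Ndufb9, an accessory subunit of the membrane arm, was dimmer and more variable, with medians of 7.24 in AL (6.67 to 8.02), 7.52 in DR (7.18 to 8.15) and 6.82 in Rapa (5.88 to 7.35). In DR 7 of 8 arrays lay above every Rapa array, and in Rapa 4 of 8 lay below every AL array. The difference between DR and Rapa was the largest of complex I, at 0.91 ± 0.22 (1.88-fold, adjusted p = 0.00681), and Ndufb9 also had the lowest value of complex I in Rapa against AL, at -0.57 ± 0.22 (adjusted p = 0.405).

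The other 10 genes of complex I did not pass in any comparison. Their changes in DR against AL ran from -0.37 (Ndufb3, adjusted p = 0.429), the lowest of the 42, to 0.50 (Ndufb5, adjusted p = 0.185). In Rapa against AL the highest of the complex was Ndufs8 at 0.09. All 10 were above 0 in DR against Rapa, from 0.03 (Ndufb3) to 0.62 (Ndufb5, adjusted p = 0.0931), with Ndufb8 (0.39, adjusted p = 0.0501) and Ndufs3 (0.52, adjusted p = 0.0526) close to the threshold.

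Complex II, the succinate dehydrogenase, had 1 of its 3 measured genes higher in DR than in Rapa. Sdhb, the iron-sulphur subunit, ran from 8.39 to 9.90 in AL (median 9.40), from 9.19 to 10.53 in DR (median 9.90) and from 8.03 to 9.65 in Rapa (median 8.95). All 8 DR arrays lay above the Rapa median and 6 above every Rapa array, and 7 of 8 Rapa arrays lay below the AL median. Sdhb differed between DR and Rapa by 0.96 ± 0.23, or 1.95-fold, the largest of the 42 genes (adjusted p = 0.00636), with 0.49 ± 0.23 for DR against AL (adjusted p = 0.199) and -0.47 ± 0.23 for Rapa against AL (adjusted p = 0.533). The membrane anchors Sdhc and Sdhd were -0.13 and -0.05 in DR against AL and -0.58 and -0.32 in Rapa against AL, none past the threshold. The 2 further kept probes of Sdhb gave 0.76 (adjusted p = 0.0976) and 0.25 in DR against Rapa.

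Complex III had 3 of 5 genes higher in DR than in Rapa, the core proteins Uqcrc1 and Uqcrc2 and cytochrome c1 (Cyc1). Of its small subunits among the 42, Uqcrh (0.27 ± 0.14) and Uqcrq (-0.16 ± 0.18) did not pass, while Uqcr10 and Uqcr11, small subunits outside the 42, gave 0.48 (adjusted p = 0.00673) and 0.41, the last just short of the threshold. Uqcrq was the single gene of the 42 below 0 in DR against Rapa. No difference between subgroups was tested.

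Cyc1, cytochrome c1, which hands electrons to cytochrome c, had medians of 10.82 in AL (10.54 to 11.30), 11.19 in DR (11.09 to 11.63) and 10.53 in Rapa (10.08 to 11.10). All 8 DR arrays lay above both other medians, and 6 lay above every Rapa array. It stood 0.71 ± 0.14 higher in DR than in Rapa (1.64-fold, adjusted p = 0.000839) and 0.39 ± 0.14 higher than in AL (adjusted p = 0.0678).

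Uqcrc1, the other core protein, had medians of 10.76 in AL (10.48 to 10.97), 10.85 in DR (10.54 to 11.20) and 10.36 in Rapa (9.99 to 10.75). Here the Rapa arrays were the ones displaced, with all 8 below the AL median and 6 below every AL array, while DR and AL overlapped widely. The difference was 0.51 ± 0.13 between DR and Rapa (adjusted p = 0.00983), 0.11 ± 0.13 between DR and AL, and -0.40 ± 0.13 between Rapa and AL. The last had the smallest adjusted p of the 42 genes in that comparison, 0.265.

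Complex IV, cytochrome c oxidase, had 3 of 8 genes higher in DR than in Rapa, with a median over the 8 of 0.44. In DR against AL 0 of the 8 passed. Ndufa4, which passed in DR against AL and in DR against Rapa, is counted by its symbol under complex I. Cox5a, a matrix-side subunit, had medians of 11.76 in AL (11.61 to 11.98), 12.05 in DR (11.83 to 12.15) and 11.66 in Rapa (10.82 to 11.93). In DR 7 of 8 arrays lay above every AL array and 7 above every Rapa array, and the values within DR were close together (SD 0.0986, n = 8). Cox5a stood higher in DR than in Rapa by 0.49 ± 0.13 (adjusted p = 0.0123) and than in AL by 0.27 ± 0.13 (adjusted p = 0.208).

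Cox5b, which binds zinc on the matrix side, had medians of 12.43 in AL (12.20 to 12.76), 12.75 in DR (11.87 to 12.95) and 12.01 in Rapa (11.47 to 12.63). In DR 6 of 8 arrays lay above every Rapa array and 1 lay below every AL array. The difference between DR and Rapa was 0.57 ± 0.17 (adjusted p = 0.0303), and its further kept probe gave 0.68 ± 0.14 (adjusted p = 0.00217). For the main probe the call was lost on leaving out any 1 of 7 arrays (highest adjusted p = 0.0677).

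Cox6b1, a subunit on the intermembrane side, had medians of 13.15 in AL (12.79 to 13.36), 13.45 in DR (12.94 to 13.67) and 12.96 in Rapa (12.58 to 13.44). In DR 6 of 8 arrays lay above every AL array, 4 lay above every Rapa array and 1 lay low. This gave a difference of 0.43 ± 0.14 between DR and Rapa (adjusted p = 0.0421), lost on leaving out any 1 of 14 arrays (highest adjusted p = 0.0899). The further kept probe of Cox6b1 gave 0.36 ± 0.13 and did not pass (adjusted p = 0.0833). Cox6c had the largest value of complex IV in DR against AL (0.32 ± 0.24, adjusted p = 0.468), but its arrays overlapped widely, from 10.36 to 11.96 in AL with a median of 11.52, from 11.26 to 12.24 in DR with a median of 11.53, and from 10.30 to 12.19 in Rapa with a median of 11.06. A second probe of Cox6a1 also stood higher in DR than in Rapa (0.53 ± 0.16, adjusted p = 0.0292), where the brighter probe gave 0.29 (adjusted p = 0.345).

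ATP synthase had 1 of 9 genes higher in DR than in either other group, Atp5j. None of the 4 measured genes of the catalytic F1 head (Atp5a1, Atp5b, Atp5c1 and Atp5d) passed in any comparison, although all 4 lay above 0 in DR against Rapa, from 0.32 to 0.52. Atp5c1, the central stalk subunit gamma, had the largest value of the complex in DR against AL, 0.51 ± 0.17 (1.42-fold, adjusted p = 0.0618), with a range of 12.55 to 13.41 in AL (median 12.75), 13.09 to 13.81 in DR (median 13.34) and 12.29 to 13.42 in Rapa (median 12.79). Every DR array lay above the AL median but 3 above every AL array. In Rapa against AL the 9 genes ran from -0.46 (Atp5d) to -0.01 (Atp5c1), and in DR against Rapa from 0.21 (Atp5g3) to 0.52 (Atp5a1, adjusted p = 0.0659).

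The medians of the complexes in DR against AL were 0.27 for complex I, -0.05 for complex II, 0.27 for complex III, 0.28 for complex IV and 0.20 for complex V. In Rapa against AL they were -0.18, -0.47, -0.26, -0.20 and -0.17 in the same order. They lay closer together in DR against Rapa, between 0.40 (complex V) and 0.51 (complex III). In complex II, with 3 genes, the spread of the median between arrays of a group (SD 0.487) exceeded that of the other complexes, which lay between 0.0779 and 0.188.

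Rapamycin against AL gave 0 respiratory genes past the threshold with limma. At an unadjusted p under 0.05, 7 of the 42 were lower and 0 higher, beside 570 lower and 375 higher among all 9836 genes. The 15 genes that passed among all genes tested were all lower in Rapa. The values for the 42 ran from -0.58 (Sdhc) to 0.09 (Uqcrq).

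The same values can be read array by array. On each DR array between 25 and 40 of the 42 genes lay above their AL mean, with a median difference of 0.10 to 0.40, and on each Rapa array between 9 and 19 did, with a median difference of -0.43 to -0.05. The AL arrays themselves had 18 to 26 genes above the mean, and medians from -0.06 to 0.11. The array medians of DR and Rapa did not overlap, and those of AL overlapped with both. Of single genes, 4 of 42 had every DR array above every Rapa array (Ndufa4, Ndufs7, Ndufv1 and Uqcrc2), where 1.3% of all genes did, and 0 of 42 had every DR array above every AL array, where 1.24% did.

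**Figure D3:**
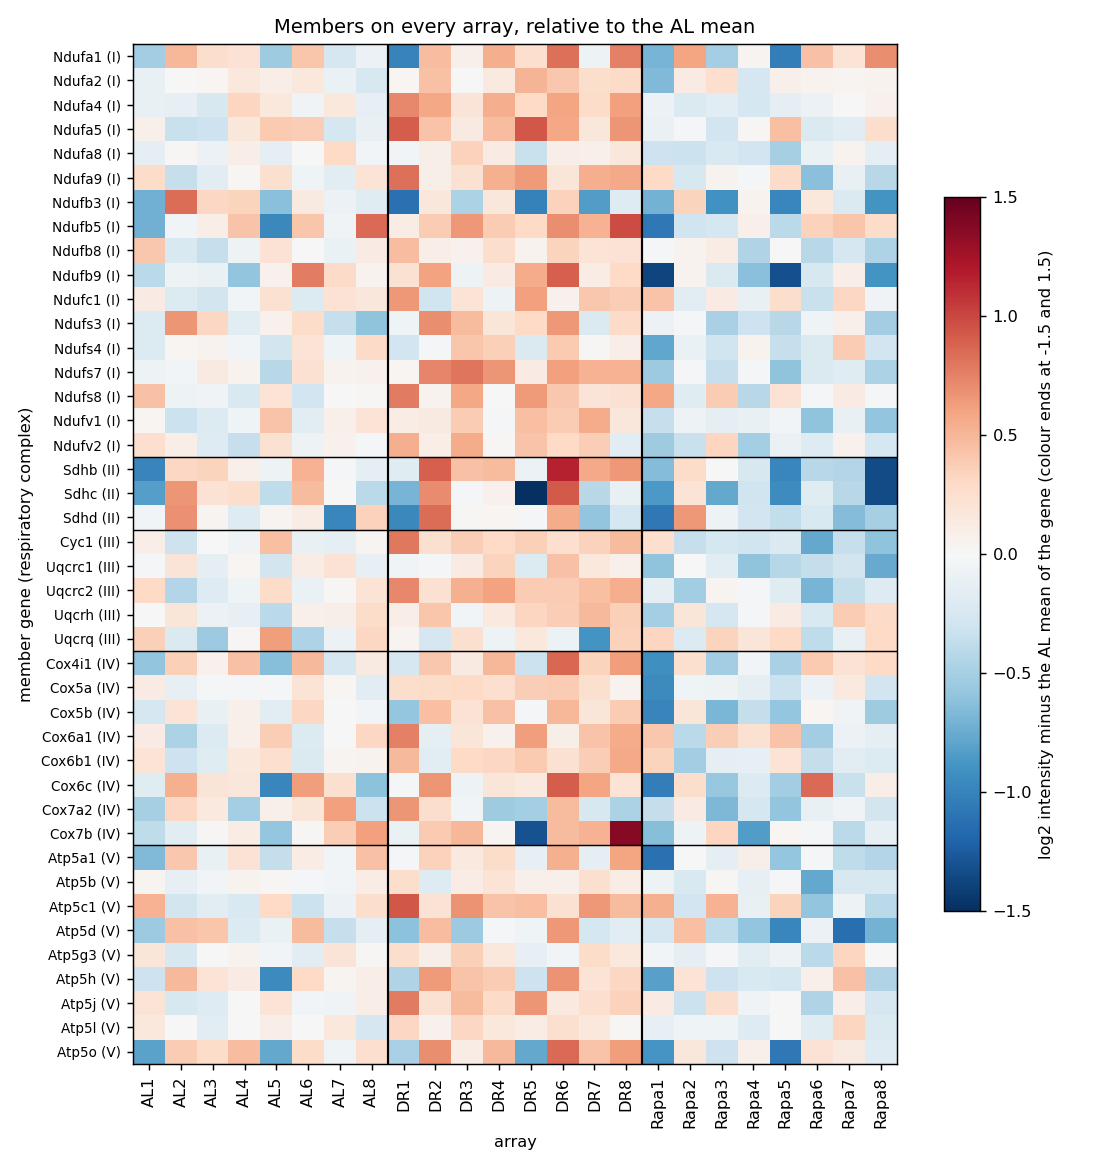
Log2 intensity of each of the 42 genes (rows, by complex) on each of the 24 arrays (columns), as the difference from the AL mean of that gene. Red is higher and blue lower, and colours end at -1.5 and 1.5. DR columns are mostly red and Rapa columns mostly pale blue, and arrays numbered 1 or 5 have dark blue cells in rows such as Atp5o, Ndufb3 and Sdhc in every group.

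Levels of the genes differed with the replicate number class, and the same counts were not made over all genes. On the 6 arrays numbered 1 or 5, the dimmest ones, 8 genes had a mean more than 0.5 below their own group mean: Atp5o (-0.80), Ndufa1 (-0.66), Sdhc (-0.63), Ndufb3 (-0.61), Cox4i1 (-0.60), Ndufb5 (-0.59), Atp5h (-0.54) and Cox7b (-0.50). Atp5o, the stalk subunit known as OSCP, was low on all 6, with deviations from -1.01 to -0.65. In the fit without this class, 0 of these 8 genes passed in any of the 3 comparisons. With the class as a block, Ndufb5 passed as higher in DR than in AL, and Atp5h, Atp5o, Cox4i1 and Ndufb5 in DR than in Rapa. In contrast 17 genes lay above their group mean on these arrays, up to 0.35 for Atp5c1. The number class was spread evenly over the groups, with 2 arrays of each class in each group.

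Within each number class the direction held for most genes. In DR against Rapa, 38, 42, 39 and 40 of the 42 genes lay above 0 in the 4 classes, with medians of 0.39, 0.45, 0.29 and 0.45, and all 15 genes that passed kept their sign in each class. In DR against AL, 31, 41, 35 and 37 lay above 0, with medians of 0.26, 0.28, 0.25 and 0.22. All 5 genes that passed there kept their sign. The 15 and the 5 genes were called on these same arrays, so their signs within classes are no separate support. Nor are the counts over the 42, since each fold change over all arrays is the mean of its values in the 4 classes. Signs within classes were not counted over all genes. Within a class alone, with 2 arrays a group, 0 of the 42 passed in any comparison. In Rapa against AL, 32, 37, 24 and 36 lay below 0, with medians of -0.20, -0.17, -0.06 and -0.25. With the number class as a block in the fit, 13 of the 42 passed as higher in DR than in AL and 26 in DR than in Rapa, beside 9.27% and 10% of all genes.

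**Figure D4:**
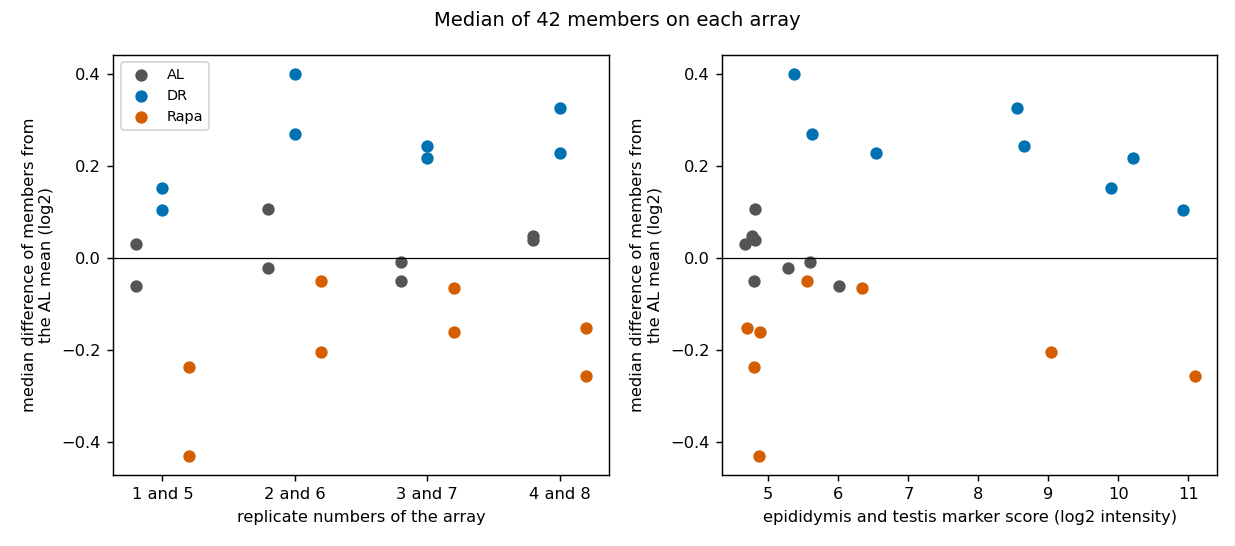
Median difference of the 42 genes from their AL mean on each array, against the replicate numbers of the array (left) and against the epididymis and testis marker score (right, log2 intensity). Each point is 1 array of AL, DR or Rapa. DR points lie above Rapa points in every number class and over the range of scores both groups share.

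Epididymis and testis transcripts moved with the groups, as 6 DR arrays, 3 Rapa arrays and 1 AL array scored above 6. Without the 7 arrays above 8, which leaves 8 AL, 3 DR and 6 Rapa arrays, the median was 0.30 in DR against AL and 0.52 in DR against Rapa, with 40 and 39 genes above 0, but 2 genes passed in the first (Ndufa4 at 0.57, adjusted p = 0.0398, and Ndufs7 at 0.67, adjusted p = 0.0331) and 5 in the second, beside 1.82% and 3.16% of all genes. Atp5j then fell to 0.22 in DR against AL (adjusted p = 0.538), and Uqcrc2 stood at 0.40 (adjusted p = 0.272) and Ndufa5 at 0.49 (adjusted p = 0.196). Between DR and Rapa, Ndufa9 fell to 0.23 (adjusted p = 0.495), Cox6b1 to 0.19 (adjusted p = 0.601), Ndufv1 to 0.30 (adjusted p = 0.325), Cyc1 to 0.47 (adjusted p = 0.126) and Atp5j to 0.20 (adjusted p = 0.492). Ndufs7 (0.96), Sdhb (1.18), Ndufa4 (0.71) and Cox5b (0.88) remained past the threshold there, and the fifth gene was Sdhc. Without all 10 arrays above 6, which leaves 2 DR arrays, the medians were 0.34 and 0.55, with 0 and 6 genes past the threshold, beside 0.935% and 2.03% of all genes. These fits rest on 2 or 3 DR arrays.

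Markers of the cell types in fat also moved with the comparison. Adipocyte genes lay higher in DR than in Rapa, 14 of 16 with a median of 0.46, close to the 0.45 of the respiratory genes, and 4 passed as higher and 1, Lep, as lower. Against AL 15 of these 16 lay lower in Rapa (median -0.21, 0 past the threshold) and 9 lay higher in DR (median 0.15, with Lep past the threshold as lower). Macrophage genes lay lower in DR, 12 of 13 against AL with 5 past the threshold, and 12 of 13 against Rapa with 7 past the threshold. In DR against AL 2 of 6 mesothelial genes passed as higher (median 0.51) and 2 of 8 endothelial genes as lower (median -0.19), with 0 of either in the other comparisons. Of 8 brown adipocyte genes 4 passed the detection filter, and their summed intensity was 569 to 1219 in AL, 719 to 1682 in DR and 248 to 457 in Rapa, while Ucp1, the uncoupling protein that defines brown fat, was detected on 0 arrays. The list holds Cox8b, described further on, and of the other 3 measured genes 0 passed in Rapa against AL. All 4 lay below 0 there (median -0.61), 3 of them with an unadjusted limma p under 0.05. In DR against AL 1 gene of the list, not Cox8b, passed as higher (median 0.44). In DR against Rapa 2 passed as higher, Cox8b among them (median 1.13). Skeletal muscle genes had a summed intensity of 619 to 2703 in AL, 227 to 724 in DR and 224 to 436 in Rapa, with 5 of 10 past the detection filter. The sum follows few of these genes: Acta1 passed as lower in DR (-1.44) and Rapa (-2.52) than in AL and Pvalb in DR (-1.81), while the medians over the 5 were -0.68 and -0.06. In bulk tissue fewer cells of a type and less RNA per cell cannot be told apart, and the part of these markers in the respiratory genes' shift was not tested.

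Other genes of the pathway were read from lists chosen by function, whose counts stand beside 5.2% of all genes called higher and 6.5% lower in DR against AL, and 5.88% called higher in DR against Rapa. Among 28 measured genes outside the 46, mostly subunits, 4 rose in DR against AL and 8 were higher in DR than in Rapa. The medians were 0.17 and 0.34, with 0 lower in either. The 28 include cytochrome c (Cycs) and the ATP synthase inhibitor Atpif1, which are not subunits. Ndufa12 rose by 0.59 ± 0.13 (adjusted p = 0.00252) and Ndufa10 by 0.57 ± 0.11 (adjusted p = 0.00143), both accessory subunits of complex I. Uqcr10, a small subunit of complex III, rose by 0.37 ± 0.12 (adjusted p = 0.0388), lost on leaving out any 1 of 10 arrays (highest adjusted p = 0.0859) and with the authors' values. A rise was also called for Dmac2l, listed with the ATP synthase genes under the older symbol Atp5s, by 0.57 ± 0.13 (adjusted p = 0.00553). These genes were measured on the same arrays as the 42.

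The 7 measured subunits encoded in the mitochondrial DNA lay above 0 in DR against Rapa in 7 of 7, below 0 in Rapa against AL in 7 of 7 and above 0 in DR against AL in 6 of 7. Of these genes ND4L passed, with 0.65 ± 0.16 in DR against AL (adjusted p = 0.00812) and 0.70 ± 0.16 in DR against Rapa (adjusted p = 0.00438). The medians over the 7 were 0.22 in DR against AL, -0.19 in Rapa against AL and 0.45 in DR against Rapa. In DR against AL the values ran from -0.03 (ND4) to that of ND4L.

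Of the tissue-restricted isoforms, Cox8b, the complex IV subunit of muscle and brown fat, was the single gene past the threshold in Rapa. Its level ran from 8.07 to 9.81 in AL (median 8.98), from 8.70 to 10.09 in DR (median 9.16) and from 6.15 to 7.55 in Rapa (median 6.52), so that every Rapa array lay below every array of the other groups. It fell by 2.22 on the log2 scale in Rapa against AL (SE 0.24, adjusted p = 1.24e-05) and stood 2.62 ± 0.24 higher in DR than in Rapa (6.13-fold, adjusted p = 5.39e-08). Cox7a1, Cox6a2, Cox6b2 and Cox4i2 did not pass in any comparison.

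Assembly factors, which build the complexes without being part of them, gave 1 of 33 past the threshold in DR against AL, Acad9, which fell by 0.55 (SE 0.17, adjusted p = 0.0405). That call was lost on leaving out any 1 of 11 arrays (highest adjusted p = 0.0992) and under 6 of 15 other settings. In DR against Rapa 2 of 33 passed, Ndufaf5 (0.86 ± 0.19, adjusted p = 0.00340) and Coa5 (0.38 ± 0.11, adjusted p = 0.0288), a share near the 5.88% of all genes, and the median over the 33 was 0.18. The call of Coa5 was lost on leaving out any 1 of 5 arrays (highest adjusted p = 0.0603). Among 20 regulators of mitochondrial gene expression, Ppargc1b, the coactivator PGC-1 beta, rose by 1.19 ± 0.25 in DR against AL (2.28-fold, adjusted p = 0.00230) and Mterf1a by 0.48 ± 0.13 (adjusted p = 0.0204, or 0.0513 without DR array 8), while Pprc1, a related coactivator, fell by 0.94 (SE 0.25, adjusted p = 0.0134). Esrra, the receptor ERR alpha, passed in DR against Rapa (0.48 ± 0.14, adjusted p = 0.0290, lost on leaving out any 1 of 5 arrays) and not in DR against AL (0.24 ± 0.14). Nrf1, Tfam, Gabpa and Ppargc1a did not pass in any comparison, with 0.31, -0.29, -0.39 and 0.48 in DR against AL.

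Of 16 carriers and electron donors around the chain, 3 rose in DR against AL. Gpd2, the mitochondrial glycerol-3-phosphate dehydrogenase that feeds electrons to ubiquinone, rose by 1.69 ± 0.16 (3.23-fold, adjusted p = 8.42e-08), and every DR array (9.70 to 10.81) lay above every AL array (8.33 to 9.16). The ubiquinone synthesis genes Coq9 and Coq5 rose by 0.56 ± 0.18 (adjusted p = 0.0473) and 0.54 ± 0.12 (adjusted p = 0.00274), and the call of Coq9 was lost on leaving out any 1 of 16 arrays (highest adjusted p = 0.103). As higher in DR than in Rapa these 3 and Vdac1, the outer-membrane channel (0.49 ± 0.14, adjusted p = 0.0200) passed. Without the 7 arrays of highest epididymis and testis score, 1 of the 12 calls made over these 6 lists in DR against AL remained, that of Gpd2 (1.79, adjusted p = 3.48e-05), and 3 of the 18 in DR against Rapa. Cox8b kept its call in Rapa against AL (-2.28, adjusted p = 0.00023). In DR against AL, Pprc1 then stood at -0.42, Coq9 at 0.29 and Dmac2l at 0.37, each over 1.5 times closer to 0 than with all arrays.

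Probes of the same gene mostly pointed the same way. Of 64 probes of the 42 genes 58 were kept, and 16 of these, in 13 genes, were further probes beside the one that represents the gene. In DR against AL 12 of the 16 had the sign of the representative probe and 0 passed, and in DR against Rapa 15 of 16 had its sign and 2 passed. The 6 probes not kept were detected on at most 2 arrays. Signals of different probes do not order genes by level.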

How the data were processed

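RNA of 24 epididymal fat samples was measured on Illumina mouse bead arrays, 1 array per sample. The authors deposited, per the file headers, an intensity for each of 45281 probes, already background-subtracted since 26.7% to 34.3% of an array's values lie below 0, and a detection p-value for each. A further deposited table holds a score that comparison with the intensities showed to be a z-score, within each array, of log-transformed intensity after adding a constant. The base of that logarithm stays unknown, the column medians lie between -0.42 and -0.32, and the score was used as an alternative. Scanner software is not given in the sources used here.

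Intensities were background-corrected, quantile-normalized and log2-transformed with neqc of limma 3.58.1 in R 4.3.3 (offset 16). A probe was kept if detected (p under 0.05) on 8 or more arrays, which held for 17165. Symbols came from the platform annotation, which gives 34885 probes 1 symbol and 18 several and does not list 10378, and 11 symbols of the lists were matched through an older or newer name. The brightest kept probe on average stands for its gene. All 24 arrays entered 1 limma fit of 3 group means (21 residual degrees of freedom), with a two-sided moderated test and Benjamini-Hochberg adjustment over all kept probes, and ± marks the SE unless SD is stated. Adjusted p-values for genes are from limma, and 8 arrays a group limit the precision. The fit was also run on simulated data with independent noise for each gene and array. These data held no differences shared between genes, such as those of number class or tissue, so the run says nothing about them.

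The members and gene lists were chosen with earlier results of these data known. Named are all members past the threshold in any comparison, the member with the largest change in DR against AL of each complex, and of the other lists the genes past the threshold against AL. Members named outside that rule mark the ends of a range, and the genes of other lists named for DR against Rapa, or as not passing, were chosen after their values were seen. Alternatives covered background, scaling, filter, probe choice, arrays left out, covariates and blocks. Group deviations of arrays with the same replicate number correlated from -0.07 to 0.55. The value was over 0.1 in 7 of 8 pairs of AL and DR, 6 of AL and Rapa, and 6 of DR and Rapa. The best match had the array's own number for 1, 4 and 4 of 8 in the same order. Between groups the mean correlation was 0.22 within a number class and -0.07 across classes. The main fit took no account of the number, and counts with blocks are given below.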

Additional observations from a re-analysis of the deposited data

Results flagged for a closer look

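A value far from the other 7 of its group stood out in 5 of 60 groups of values examined, by Dixon's test at 95%, for which chance gives about 1 in 20. In AL, Sdhb on array 1 was 8.39 where the other arrays lay between 9.23 and 9.90. In DR, Cyc1 on array 1 was 11.63 where the others lay between 11.09 and 11.32, Cox5a on array 8 was 11.83 where the others lay between 12.01 and 12.15, and Cox6b1 on array 2 was 12.94 where the others lay between 13.33 and 13.67. In Rapa, Cox5a on array 1 was 10.82 where the others lay between 11.46 and 11.93. Of these 5 values, 3 came from arrays numbered 1, which are among the dimmest, and 2 from arrays numbered 2 or 8. The calls of Sdhb, Cyc1 and Cox5a in DR against Rapa stayed past the threshold on leaving out any 1 array, with adjusted p at most 0.0168, 0.00246 and 0.0253.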

How the results depend on the processing

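Over the alternatives tried no named gene past the threshold changed direction, and 0 members passed in Rapa against AL under any of them. With the authors' score 7 members passed in DR against AL, 3 of them among the 5 of the report (not Uqcrc2 or Atp5j), and 15 in DR against Rapa, 11 of them shared. With that score 15 of the 42 lay above 0 in Rapa against AL (median -0.14), where 4 did in the report, and over all genes Rapa against AL gave 3 higher and 15 lower. The replicate block and the number class block cannot move a fold change, since every group holds the same numbers. Their counts stand below. The count of members higher in DR than in AL was 5 in the report. It was 8 with an offset of 50, with probes detected on all 24 arrays and with array weights. It was 15 with array brightness as a covariate, 12 with the replicate block and 13 with the number class block. Without arrays above a score of 8 it was 2, and without arrays above 6 it was 0. With the marker score as a covariate it was 2, of which 1 (Ndufs7) was among the 5 and 1 (Sdhb) was not. The limma adjusted p of the others of the 5 was then 0.0554 for Ndufa4, 0.0815 for Uqcrc2, 0.155 for Ndufa5 and 0.188 for Atp5j. The count in DR against Rapa was 15 in the report. It was 26, 25 and 26 with brightness, the replicate block and the number class block, and 5 and 6 without arrays above 8 and above 6. With only the groups compared in the fit it was 11, without Ndufv2, Cox5b, Cox6b1 and Atp5j. Under the remaining settings with all arrays it lay between 14 and 20. Over all genes, 1150 passed in DR against AL, and 1804 with array weights, 1886 with the replicate block, 1953 with the number class block, 700 with the marker score, 460 without arrays above 8 and 249 without arrays above 6. In DR against Rapa the 1123 became 1763 with brightness, 1765 with the replicate block, 1887 with the number class block, 728 without arrays above 8 and 459 without arrays above 6. In Rapa against AL the 15 became 25 with an offset of 50 or the mean of kept probes, 8 with no probe filter, 45 with brightness, 48 with array weights, 121 with the replicate block, 154 with the number class block, 9 without arrays above 8 and 47 without arrays above 6. Fewer arrays enter the fits without arrays above 6 or 8; the cause of the other shifts was not tested. The median of complex V in DR against AL, 0.20 in the report, was 0.11 with the mean of kept probes, 0.32 with the marker score, 0.29 with brightness or without arrays above 8 and 0.30 without arrays above 6. In DR against Rapa, 0.40 in the report, it was 0.32, 0.51 and 0.20 with the mean of kept probes, the marker score and without arrays above 8, and 0.24 without arrays above 6. In Rapa against AL, -0.17 in the report, it was -0.088 with the marker score and -0.080 without arrays above 6. The median of complex II in DR against AL, -0.05 in the report, was 0.56 without arrays above 8 and 0.70 without arrays above 6. In DR against Rapa, 0.45 in the report, it was 1.08 and 1.34 in the same order. The median of complex IV in DR against Rapa, 0.44 in the report, was 0.70 without arrays above 6. Leaving out 1 array at a time gave 3 to 7 members and 912 to 1268 genes in DR against AL, 12 to 18 members and 975 to 1217 genes in DR against Rapa, and 0 members and 8 to 36 genes in Rapa against AL, and the median of complex V in DR against Rapa ran from 0.34 to 0.49. The exclusion of arrays above 8, the comparison within number classes and the bright-gene shares were chosen after seeing the data.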
